A study of Mus musculus with 2 samples.

Results

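The interferon regulatory factor (IRF) genes Irf1, Irf2, Irf3, Irf5, Irf7, Irf8 and Irf9 were followed in bone marrow (BM) LSKs of a mouse model of chronic myelogenous leukemia (CML). They were taken by symbol, and the 7 genes were all found among the 34745 genes of the deposited tables, with at least 20 reads each. Other genes of the family were not analysed here. LSKs are lineage-negative cells with Sca1 and c-Kit on their surface, which hold the stem and early progenitor cells. They were sorted from Scl/tTA-BA mice on a C57BL/6 background, which carry BCR/ABL (BA) under a tetracycline-responsive promoter and the transactivator tTA under Scl control, so that BA is switched on in stem and progenitor cells when doxycycline is taken out of the drinking water. The control was week-0, from mice with the same transgenes kept on doxycycline, and it was compared with LSKs taken 3 weeks after withdrawal (week-3). Each time point was 1 library from the cells of 3 mice mixed together, so there were no replicates, mice cannot be compared with each other, and no p-values are given.

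IRF proteins share a DNA-binding domain at the N-terminus that reads GAAA repeats, found in interferon-stimulated response elements. Interferon receptors signal through JAK kinases to STAT proteins, which join with Irf9 to form the complex ISGF3. Irf3, Irf5 and Irf7 are instead switched on by phosphorylation below sensors of foreign nucleic acid and bacterial products. Irf8 acts mainly as a lineage factor. It drives monocyte and dendritic cell fates together with Pu.1, and mice that lack it develop a CML-like expansion of granulocytes.

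The libraries held 6356164 (week-0) and 3886695 (week-3) reads on genes, and 3 reads were taken as the smallest number to rest a value on. Both sorting markers were present in both libraries, with an FPKM (fragments scaled to exon length and to library size) of 16.9 and 11.5 for Kit and of 19.8 and 14.8 for Ly6a, the gene of Sca1. Markers of other cells differed between the libraries. The 9 conventional dendritic cell markers summed to an FPKM of 323 (week-0) and 34.8 (week-3), nearly all from Cd74, H2-Ab1, H2-Eb1 and H2-Aa. In that list, Xcr1, Clec9a, Itgax and Cd209a had at most 8 reads in either library. The 6 plasma cell markers summed to 323 and 56.2. The 7 plasmacytoid dendritic cell markers had 267 and 172, mostly from Bst2 (194 and 159), with Klk1 at 0 reads at week-3. Of the 5 with at least 20 reads over both libraries, 4 had a week-3 FPKM at most 0.5 times that of week-0. This was so for 15.6% of all genes with that many reads. The 8 B cell markers had 38.2 and 28.4, mostly from Cd79b (23.5 and 26.4), while Cd79a had 114 and 2 reads. The 8 T and NK cell markers had 285 and 424, nearly all from Nkg7, with Cd3e, Cd8a and Ncr1 at 0 reads at week-3. The 9 monocyte and macrophage markers had 61.7 and 260.0 (Fcgr1 had 0 reads at week-0), the 9 neutrophil markers 2031 and 10974, and the 6 mast cell markers 120 and 1883. The 19 early response genes, such as Fos and Egr1, took 4.62% (week-0) and 1.29% (week-3) of all reads, with Egr3 at 0 reads at week-3. The 8 stem and progenitor markers had a summed FPKM of 279 and 95.9. The part of these differences in the values of the IRF genes was not tested, and in mixed cells a change in the number of expressing cells and a change in RNA per cell cannot be told apart.

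The core of the interferon-stimulated response element, written GAAANNGAA, was searched on both strands of the IRF promoters, from 250 bases before to 50 bases after each start (RefSeq, GRCm38.p6; 10 promoters for the 7 genes). It is shown as the letters that IRF proteins read. Capitals mark the match and small letters the 8 bases on each side.
Irf2, chr8:46739496-46739520, plus strand, match starting 241 bases before the start: ggggaagtGAAAATGAAattgactt

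Irf2 was the 1 of the 7 IRF genes that held the element, beside 9.76% of all 27025 genes with a promoter in the table. The core of the composite element read jointly by ETS factors such as Pu.1 and by IRFs, written GGAANNGAA, was found in the Irf2 promoter, where it overlaps the response element, and in 9.42% of all genes. The AP-1 site TGACTCA was in no IRF promoter and in 5.95% of all genes. No match to these motifs was found in the windows of the other IRF genes, which says only that these letters are not there.

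Irf1 had the highest FPKM of the IRF genes at week-0, with an interval that overlapped that of Irf3, and was one of the 3 that were below 0.5 times that level at week-3, together with Irf7 and Irf9. Irf2 and Irf5 were lower by less, and Irf3 and Irf8 were higher. A ratio of FPKM at week-3 over week-0 of at least 2 or at most 0.5 was taken as past 2-fold. By this rule 3 of the 7 genes were lower and 0 were higher, beside 15.6% lower and 10.6% higher among all 12192 genes with at least 20 reads over both libraries. The median log2 ratio of the 7 genes was -0.94, beside 0.07 over all 12192 genes. The 95% intervals given with each ratio are exact Clopper-Pearson intervals of the reads and hold counting error alone. The cDNA was amplified, so 1 molecule can give several reads.

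**Figure D1:**
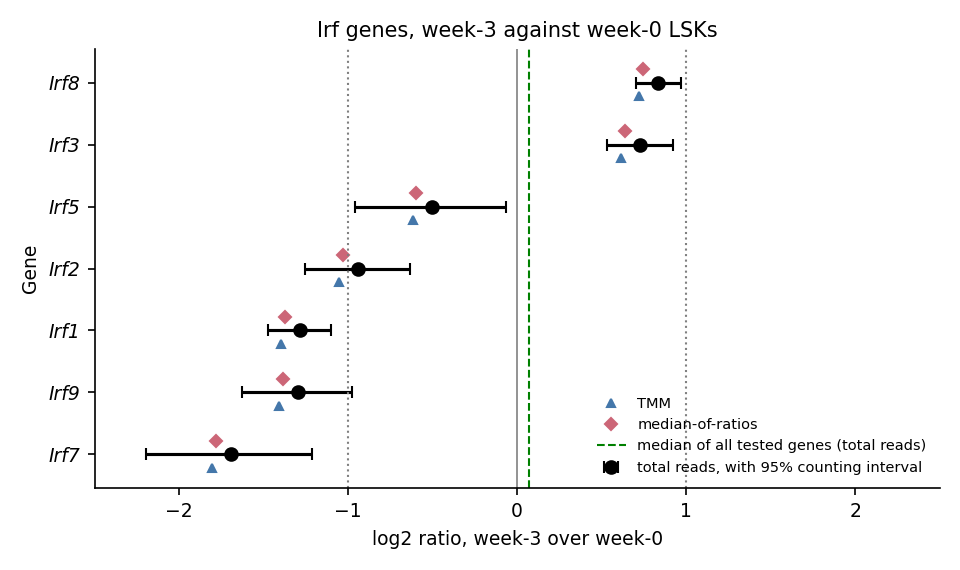
log2 ratio of FPKM at week-3 over week-0 for each IRF gene (horizontal axis), with black points and 95% counting intervals for scaling by total reads, triangles for TMM and diamonds for median-of-ratios scaling. Dotted lines mark 2-fold and the dashed line the median of all tested genes, 0.07; Irf7, Irf9 and Irf1 lie left of -1, Irf2 at -0.94 lies next to it, and Irf3 and Irf8 lie right of 0.

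Irf1 (ENSMUSG00000018899, chromosome 11, 53770014 to 53778374 of GRCm38, plus strand), an activator induced by interferon-γ that limits proliferation, had 1168 week-0 reads and 293 week-3 reads. Its FPKM was 31.9 and 13.1, a log2 ratio of -1.29 (95% interval -1.48 to -1.10), so the week-0 level was 2.44 times the week-3 level. Only 11.6% of the tested genes had a lower ratio. The antisense gene Gm17334, which shares 135 exon bases with it, had 2 and 0 reads. Irf2 (ENSMUSG00000031627, chromosome 8, 46739745 to 46847458, plus strand) binds the same element and was first described as the antagonist of Irf1; it is known to keep stem cells quiescent by restraining type I interferon signalling. It had 367 and 117 reads and an FPKM of 23.2 and 12.1, a log2 ratio of -0.94 (-1.25 to -0.64). This was just short of 2-fold, and under TMM and median-of-ratios scaling the log2 ratio was -1.05 and -1.03, past it. The FPKM of Irf1 over that of Irf2 was 1.37 at week-0 and 1.08 at week-3. The log2 difference between these ratios, -0.35, had an interval that included 0 (-0.71 to 0.02), so a shift of the activator against its antagonist was not detectable at this depth. Per kilobase of merged exons, Irf1 was at 46.2 against 7.81 for Irf2 (week-0) and at 19.0 against 4.07 (week-3). The size of Irf1 relative to Irf2 within a library thus depended on the exon length used.

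Irf9 (ENSMUSG00000002325, chromosome 14, 55603571 to 55610030, plus strand), the DNA-binding subunit of ISGF3, had 398 week-0 reads and 99 week-3 reads. Its FPKM was 7.30 and 2.97, a log2 ratio of -1.30 (-1.63 to -0.98). Rnf31, which begins upstream on the same strand and shares 123 exon bases with Irf9, had a log2 ratio of -0.86 (-1.25 to -0.47), and reads in the shared bases could count for either gene.

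Irf7 (ENSMUSG00000025498, chromosome 7, 141262706 to 141266481, minus strand), which amplifies the type I interferon response and is itself induced by ISGF3, had the lowest ratio of the 7. Its 227 week-0 reads and 43 week-3 reads gave an FPKM of 5.56 and 1.72 and a log2 ratio of -1.69 (-2.20 to -1.22). The week-0 level was 3.23 times that of week-3, and 7.89% of the tested genes had a lower ratio. Phrf1, whose end shares 45 exon bases with Irf7 on the other strand, was at 4.63 and 4.91 FPKM. Irf3 (ENSMUSG00000003184, chromosome 7, 44997648 to 45002847, plus strand), the constitutively made relative of Irf7 that starts the interferon-β response, was on the other side. It had 438 and 443 reads, so that in the smaller week-3 library its FPKM was 48.0 against 29.0 at week-0, a log2 ratio of 0.73 (0.53 to 0.92). The FPKM of Irf7 over that of Irf3 was 0.192 at week-0 and 0.0359 at week-3, a 5.34-fold difference that does not depend on scaling between the libraries (log2 -2.42, interval -2.96 to -1.90). For Irf9 over Irf3 the ratios were 0.251 and 0.0618 (log2 difference -2.02, interval -2.41 to -1.64).

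Irf5 (ENSMUSG00000029771, chromosome 6, 29526625 to 29541871, plus strand), which acts below Toll-like receptors to drive inflammatory cytokines, had 144 and 62 reads and an FPKM of 6.38 and 4.49. Its log2 ratio of -0.51 had the widest interval after Irf7 (-0.96 to -0.07). It shares 411 exon bases, 14.1% of its own, with Tnpo3 on the opposite strand, whose log2 ratio was -0.05 (-0.34 to 0.24). Irf8 (ENSMUSG00000041515, chromosome 8, 120736358 to 120756694, plus strand) had 896 week-0 reads and 977 week-3 reads. Its FPKM was 16.3 and 29.0, a log2 ratio of 0.83 (0.70 to 0.97), and 85.4% of the tested genes had a lower ratio. Irf8 was thus the member with the highest ratio, at 1.78-fold. Against Irf2 it went from 0.699 to 2.39 times its FPKM, a log2 difference of 1.77 (1.44 to 2.11). Per kilobase of merged exons, however, Irf8 was above Irf2 in both libraries, at 19.98 against 7.81 (week-0) and 35.6 against 4.07 (week-3). The FPKM of Irf1 over that of Irf8 went from 1.96 to 0.451 (log2 difference -2.12, interval -2.35 to -1.89), and that of Irf5 over Irf8 from 0.393 to 0.155 (-1.34, interval -1.81 to -0.88).

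The counts of members depended on the call rule, and each is given here with the share of all tested genes. With TMM factors 4 were lower (17.5% of all genes) and 0 higher (8.51%), Irf2 being the gene added, and with median-of-ratios factors 4 were lower (17.2%) and 0 higher (8.83%). Scaled without the early response, mast cell and neutrophil genes, 3 were lower (16%) and 0 higher (10.1%). With limits of 1.5 and 0.67 in place of 2 and 0.5, Irf3 and Irf8 counted as higher (23.7%) and 4 genes as lower (24.8%). Where the counting interval also had to leave out a ratio of 1, 3 were lower (14.6%) and 0 higher (10.3%), and among the 15377 genes above 0 reads in both libraries 3 were lower (16.2%) and 0 higher (14.2%). In edgeR's exact test, whose spread between mice has to be assumed here, Irf1, Irf7 and Irf9 were lower at a biological coefficient of variation of 0.1 (13.5%) and of 0.2 (9.17%), and 0 genes at 0.4 (1.63%). These calls asked for an adjusted p-value below 0.05 on top of the 2-fold limit. Irf2, Irf3, Irf5 and Irf8 were short of that limit and could not be called, whatever the test gave. No member was called higher (9.42%, 5% and 0.41% of all genes).

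**Figure D2:**
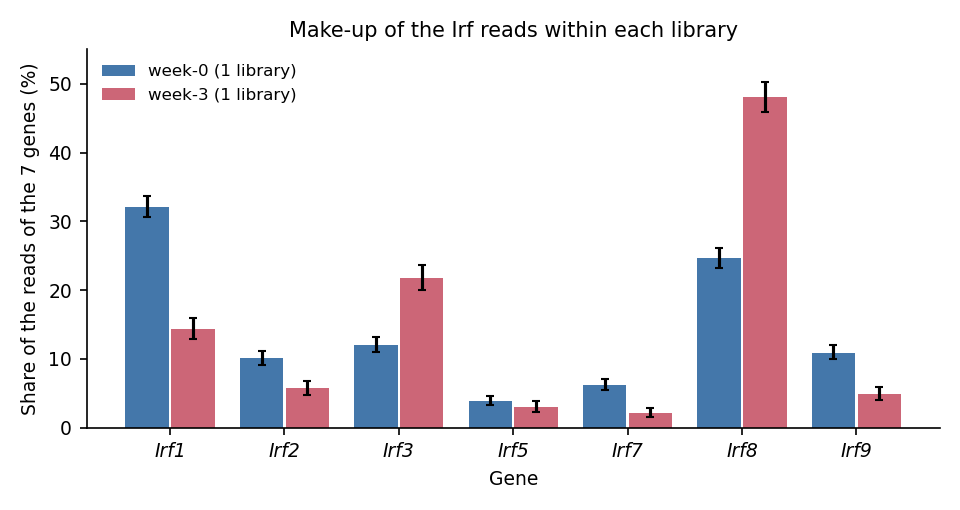
Share of the reads of the 7 IRF genes taken by each gene (vertical axis, percent) in the week-0 and week-3 libraries, with 95% exact binomial intervals. Irf1 took the largest share at week-0, 32.1%, and Irf8 at week-3, 48.0%.

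The family as a whole took 3638 reads or 0.0572% at week-0 and 2034 reads or 0.0523% at week-3 of all reads on genes, and its make-up differed. Irf1 took 32.1% of these reads at week-0 (95% exact binomial interval 30.6% to 33.7%) and 14.4% at week-3 (12.9% to 16.0%). Irf8 took 24.6% (23.2% to 26.1%) and 48.0% (45.8% to 50.2%). Irf3 and Irf8 together took 36.7% and 69.8%. The share of Irf7 was 6.24% and 2.11%, and that of Irf9 10.9% and 4.87%.

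The order of the levels depended on the exon length by which reads were divided. In the deposited FPKM, the order at week-0 was Irf1 (31.9), Irf3 (29.0), Irf2 (23.2), Irf8 (16.3), Irf9 (7.30), Irf5 (6.38) and Irf7 (5.56). The 95% Poisson intervals overlapped between Irf1 and Irf3, between Irf9 and Irf5 and between Irf5 and Irf7. At week-3 the order was Irf3 (48.0), Irf8 (29.0), Irf1 (13.1), Irf2 (12.1), Irf5 (4.49), Irf9 (2.97) and Irf7 (1.72), with overlap between Irf1 and Irf2 and between Irf5 and Irf9. The length behind the FPKM was 2484 bases for Irf2 and 8582 for Irf9, although the merged exons of GENCODE M21 cover 7396 and 5386 bases. Across 11190 genes with at least 20 reads at week-0, this length equalled the sum of all distinct annotated exons for 66.7%, a sum that counts bases in overlapping exons more than once. It did so for Irf1 and Irf5, but not for the other 5 IRF genes, and for Irf2 and Irf3 (2374 against 3442 bases) it was shorter than the merged exons. How the length of those 5 was set is not given in the sources used here. Divided by merged exons instead, Irf1 was at 46.2 RPKM at week-0, above Irf3 at 20.02 and Irf8 at 19.98, and Irf2 at 7.81 was sixth. At week-3 Irf8 (35.6) and Irf3 (33.1) led with overlapping intervals, before Irf1 at 19.0, and Irf2 was at 4.07. The ratios between the libraries use the same length on both sides and are not affected.

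**Figure D3:**
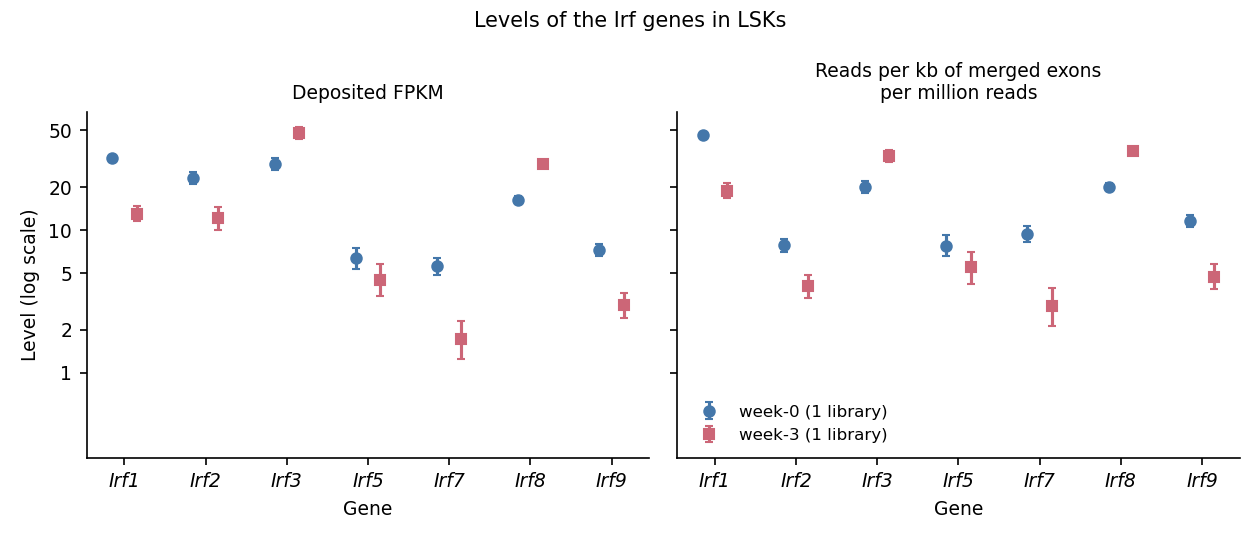
Level of each IRF gene in the week-0 (circles) and week-3 (squares) libraries on a log axis, as deposited FPKM (left) and as RPKM over merged GENCODE M21 exons (right), with 95% Poisson intervals of the reads. Irf2 is at 23.2 FPKM on the left and 7.81 on the right at week-0, while Irf7 is the lowest at week-3 on both sides.

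The genes around the IRF family were taken from lists of 114 symbols in all, each counted once, and are described by counts. Over these lists, 22 of 98 tested genes were past 2-fold lower (22.4%, beside 15.6% of all tested genes). Past 2-fold higher were 7 (7.14%, beside 10.6%). The 32 classical targets of ISGF3 held most of the lower genes. Of 27 with at least 20 reads, 15 were past 2-fold lower and 0 higher (55.6% lower, beside 15.6% of all genes), 25 had a ratio below 1, and the median log2 ratio was -1.16. The list shares 6 genes with other lists. Ifi44, a GTPase-like interferon gene, had 66 week-0 reads and 0 week-3 reads, at least 13.5-fold lower with 3 reads as the floor, while its counting interval reached up to a log2 ratio of -3.41. Oasl2, of the oligoadenylate synthetase family, had 155 and 13 reads (FPKM 2.27 and 0.312, log2 ratio -2.87, interval -3.81 to -2.05). At the other end of the lower genes were Zbp1, a sensor of nucleic acid, with a log2 ratio of -1.16 on 44 and 12 reads, and Cmpk2, a mitochondrial nucleotide kinase, with -1.004 on 82 and 25 reads. The most abundant targets differed from each other. Ifi27 had an FPKM of 81.2 and 22.4 (log2 ratio -1.86), whereas the antiviral membrane proteins Ifitm3 and Bst2 had 326 and 393 (0.27) and 194 and 159 (-0.29). Ly6e, with 10687 and 7074 reads, had a log2 ratio of 0.11. TMM scaling moves every log2 ratio by -0.11, which puts Ly6e at 0.00. Of the 22 ISGF3 targets in the promoter table, 15 held the response element core (68.2%), as did 10 of 16 genes reported to need Irf1 (62.5%), beside 9.76% of all genes. Isg15, a target, and Socs1, a brake induced by interferon, are shown as examples with the match in capitals.
Isg15, chr4:156200874-156200898, minus strand, match starting 72 bases before the start: aggaaaagGAAACCGAAacagaaaa
Socs1, chr16:10785597-10785621, minus strand, match starting 77 bases before the start: cggaaagaGAAACCGAAagcggggg

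**Figure D4:**
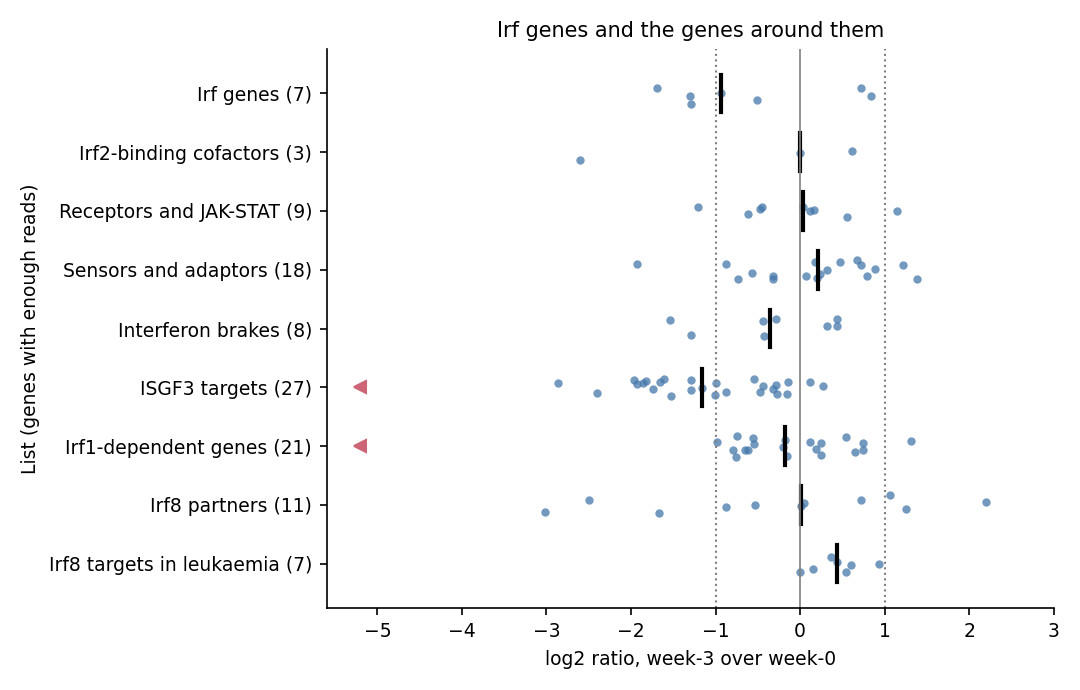
log2 ratio of FPKM at week-3 over week-0 (horizontal axis) for every gene with at least 20 reads in the IRF family and in the lists around it, with the number of genes in parentheses and a black bar at each median. Triangles at the left edge are genes with 0 reads at week-3, Ifi44 and Iigp1, whose ratio is undefined; the median of ISGF3 targets is -1.16 and that of the IRF genes -0.94.

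Stat2, a partner of Irf9 in ISGF3, had an FPKM of 4.63 and 2.01 (132 and 35 reads, log2 ratio -1.21, interval -1.79 to -0.66). Among the 9 receptor chains, kinases and STATs, Stat2 was the 1 gene past 2-fold lower and Ifngr2, the signalling chain of the interferon-γ receptor, the 1 past 2-fold higher, with an FPKM of 6.82 and 15.1 (log2 ratio 1.15, interval 0.84 to 1.46). These shares were 11.1% each, beside 15.6% lower and 10.6% higher among all tested genes, and the median of the 9 genes was 0.03. Of the 8 tested brakes on interferon signalling, 2 were past 2-fold lower (25%, beside 15.6% of all tested genes). Of these 2, Isg15 is also counted among the ISGF3 targets. Socs1, which inhibits JAK kinases, had 374 and 79 reads and an FPKM of 48.2 and 16.7 (log2 ratio -1.53, interval -1.90 to -1.18), and Isg15, a ubiquitin-like modifier, had 48 and 12 reads (-1.29, interval -2.34 to -0.36).

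Of 18 tested genes in the cascade that activates Irf3, Irf5 and Irf7, 2 were past 2-fold higher (11.1%, beside 10.6% of all genes) and 1 lower (5.56%, beside 15.6%), and the median was 0.22. The higher genes were Tirap, an adaptor of Toll-like receptors (50 and 80 reads, log2 ratio 1.39, interval 0.86 to 1.93), and Irak4, the kinase that follows it (160 and 228 reads, 1.22, interval 0.92 to 1.52). The lower gene was Ifih1, a sensor of double-stranded RNA that is also an ISGF3 target (118 and 19 reads, -1.93, interval -2.71 to -1.22).

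Of 21 tested genes reported to need Irf1, 1 was past 2-fold lower and 1 higher, and the median was -0.18. The shares were 4.76% each, beside 15.6% lower and 10.6% higher among all tested genes. Iigp1, an interferon-inducible GTPase, had 31 week-0 reads and 0 week-3 reads, at least 6.32-fold lower with 3 reads as the floor, while its counting interval reached up to a log2 ratio of -2.27. Il15ra, the receptor chain that presents Il15, had 54 and 82 reads (1.31, interval 0.80 to 1.84). The immunoproteasome subunits Psmb8, Psmb9 and Psmb10 had log2 ratios of 0.55, 0.18 and 0.25, and B2m, the light chain of MHC class I, had -0.98 on 19981 and 6195 reads and -1.09 under TMM scaling.

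Irf8 was set beside factors that act with it. Spi1, the gene of Pu.1, was at 132 and 135 FPKM (log2 ratio 0.04, interval -0.05 to 0.13), beside 0.83 for Irf8. Of 11 tested partners, 3 were past 2-fold higher and 3 lower (27.3% each, beside 10.6% higher and 15.6% lower among all tested genes). The higher ones were Gfi1, a repressor needed for neutrophils (37 and 104 reads, 2.20, interval 1.65 to 2.78), Cebpa, a granulocyte factor (1.25) and Batf (1.06). The lower ones were Bcl6 (172 and 13 reads, -3.02, interval -3.95 to -2.20), Klf4, a monocyte factor that is also an early response gene (2628 and 285 reads, -2.495, interval -2.68 to -2.32) and Cebpb (-1.68). Batf was at 0.95 under TMM scaling, short of 2-fold. Beside these, Csf1r, the monocyte growth factor receptor, had 110 and 127 reads (log2 ratio 0.92), and Ly6c2 had 1118 and 3148 (2.20). Cd74 and Zbtb46, from the list of 9 conventional dendritic cell markers, had 2505 and 47 and 49 and 5 reads. All 5 markers of that list with at least 20 reads over both libraries were past 2-fold lower, beside 15.6% of all tested genes. Of these, Zbtb46 and H2-Eb1 (281 and 16 reads) reached that minimum only through their week-0 reads. Below that minimum, Xcr1 (8 and 7 reads), Itgax (8 and 8) and Cd209a (1 and 2) had ratios above 1. The part of these markers in the level of Irf8 was not tested.

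None of the 7 tested genes that Irf8 has been described to regulate in myeloid leukemia was past 2-fold. Among all tested genes, 15.6% were lower and 10.6% higher by this rule. All 7 had a log2 ratio above 0, from 0.00 for Ctnnb1 to 0.93 for Gas2, and the median was 0.43. The counting intervals of Ctnnb1 (-0.22 to 0.22), Fancf (-0.72 to 0.99) and Nf1 (-0.03 to 0.89) included 0. Among all tested genes, 53.4% had a ratio above 1. Ctnnb1 was at -0.11 under TMM scaling. Bcl2 and Bcl2l1, survival genes that Irf8 is described to repress, had an FPKM of 6.85 and 10.4 (log2 ratio 0.61, interval 0.41 to 0.81) and of 3.70 and 5.38 (0.54, interval 0.29 to 0.79).

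Finally, 3 cofactors named for their binding to Irf2 differed from each other. Irf2bpl had 727 week-0 reads and 73 week-3 reads, an FPKM of 27.8 and 4.57, and a log2 ratio of -2.61 (-2.97 to -2.26), so the week-0 level was 6.09 times that of week-3. Irf2bp2 was at 23.2 FPKM in both libraries (log2 ratio -0.00, interval -0.17 to 0.17), and Irf2bp1 was at 8.29 and 12.7 (0.62, interval 0.27 to 0.97).

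The gene ontology terms in the tables are read against 15.6% lower and 10.6% higher among all tested genes. Of 7 tested genes annotated to the cellular response to interferon-α, 2 were past 2-fold lower (28.6%) and 0 higher (median log2 ratio -0.90). For interferon-β, 2 of 18 were lower (11.1%) and 1 higher (5.56%), with a median of 0.39. For interferon-γ, 8 of 31 were lower (25.8%) and 5 higher (16.1%), with a median of -0.05.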

How the data were processed

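RNA of BM LSKs was sequenced as paired ends after SMARTer amplification, 1 library per time point from 3 mice mixed. Reads were mapped by the authors to GRCm38 with TopHat2 2.0.9, allowing 2 mismatches. The deposited tables give raw read counts per gene and FPKM, which the authors scaled to exon length and library size. The counting tool, annotation release and use of strand are not given in the sources used here.

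From these, ratios of FPKM, exact Clopper-Pearson intervals and shares were computed (Python 3.11.15, scipy 1.17.1). Genes with at least 20 reads over both libraries were tested against limits of 2 and 0.5. Depth was 6356164 and 3886695 reads. Alternatives used TMM and an exact test with an assumed spread (edgeR 4.0.16), DESeq2 1.42.0 size factors, other limits, a pseudocount of 1 and no read minimum. The steps were tested on simulated data. GENCODE M21 gave exons and RefSeq promoters.

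The members and lists were chosen with earlier results of these data known. Named were all members, genes that overlap them, and list genes past 2-fold (for lists with over 4, the 2 lowest and 2 highest of these), with fixed partners and the most abundant markers. Of the Irf8 partners, Batf and Cebpb were named beyond this rule. Ifi27, Ifitm3, Bst2, Ly6e, the Psmb genes, B2m, Csf1r, Zbtb46, Cd79a, Bcl2, Bcl2l1, Gas2, Ctnnb1, Fancf, Nf1, Irf2bp1 and markers at 0 reads were named after their values were seen. Some genes and a motif of the lists are not reported here by name.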

Additional observations from a re-analysis of the deposited data

How the results depend on the processing

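No paired analysis was possible because each time point was 1 library, and for the same reason no replicate could be left out. The log2 ratios of the 7 IRF genes kept their sign in all 28 recomputed values (TMM, median-of-ratios, an added scaling chosen after seeing the data, and a pseudocount of 1). The median of all tested genes, 0.07, was -0.044 with TMM and -0.021 with median-of-ratios factors. With limits of 1.5 and 0.67, 2 IRF genes and 18 of 98 genes of the lists around them were higher, against 0 and 7, and 4 and 32 were lower, against 3 and 22. The share of all genes was then 23.7% higher and 24.8% lower. With edgeR's exact test on top of the 2-fold limit, at an assumed biological coefficient of variation of 0.2, 4 list genes were higher and 15 lower. Of the ISGF3 targets, 9 were lower, and the share of all genes was 5% higher and 9.17% lower. At 0.4, 0 list genes were higher, 2 were lower, and 0 IRF genes were lower, against 7, 22 and 3 by fold alone. The share of all genes at 0.4 was 0.41% higher and 1.63% lower. The spread between mice, on which these counts turn, is not given by these libraries. The level of Irf2, 23.2 and 12.1 FPKM, was 7.81 and 4.07 over merged exons, an alternative added after seeing the data, because the length used for its FPKM is shorter. Depth limits Irf7 most, with 43 reads at week-3.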
